A study of Sus scrofa with 6 samples.

Results

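The 8 genes MCM2, MCM3, MCM4, MCM5, PCNA, POLE2, RRM2 and TYMS encode parts of the DNA replication machinery and 2 enzymes that supply its nucleotides. They were followed across 6 porcine expression arrays. They were found as every probe set that the platform annotation assigns to one of these symbols, which gave 15 of the 23999 probe sets other than controls. Their gene IDs on the platform are 100519111 (MCM2), 100154824 (MCM3), 100156398 (MCM4), 100624915 (MCM5), 692192 (PCNA), 100521651 (POLE2), 100316853 (RRM2) and 100627209 (TYMS). The arrays cover growth plate cartilage, which lengthens growing bones, and articular cartilage, which covers the joint surface. Growth plate and articular chondrocytes were each measured as a culture at day 10 and at day 20 and as native tissue. For the cultures, collagenase freed the cells, which then grew in serum-containing medium under 5% oxygen without added factors. The labels count the days as days of differentiation. There was 1 array per condition, so no value has a replicate. The labels give no age, breed or number of animals and do not say whether the arrays share animals.

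DNA replication starts from origins that are licensed by a ring of 6 related MCM proteins, the helicase that later unwinds the double helix. PCNA is the sliding clamp that tethers DNA polymerases to the template, and POLE2 is a subunit of DNA polymerase epsilon, which copies the leading strand. RRM2 is the small subunit of ribonucleotide reductase, which turns ribonucleotides into deoxyribonucleotides, and TYMS, thymidylate synthase, makes the thymidine nucleotide. Transcripts of this kind are generally abundant in cells that pass through S phase, and in the growth plate they are known from the columns of dividing chondrocytes. In adult articular cartilage chondrocytes seldom divide.

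Values are linear signals per probe set, and levels are not compared between probe sets. A floor was set at a signal of 36.1, the 40th percentile of all signals, and signals under it were raised to it before log2 was taken. Of the 15 probe sets, 12 lay above the floor on at least 2 arrays, with all 8 genes among them. The other 3, 1 each of MCM2, MCM5 and TYMS, lay under it on all 6 arrays and enter each count below with no difference. The second MCM4 probe set passed only through its 2 day 10 arrays, which fixed its direction against the other stages. Where a gene had 2 probe sets above the floor, the brighter is described first. A difference against an array at the floor is a lower bound and is written "at least".

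Most of these genes had their highest signal at day 10 of culture and a several-fold lower signal at day 20, in growth plate and in articular cultures alike. By the brightest probe set of each gene, 7 of the 8 genes were lower by 2-fold or more at day 20 than at day 10 in both tissues, against 2.38% of the 6765 genes on the array. TYMS was the exception. The 8 genes were chosen with earlier results of these data known, so the shares of all genes given beside them are no independent check. In native tissue MCM2, MCM4 and MCM5 were lower by 2-fold or more in the growth plate, and MCM3 was not.

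**Figure D1:**
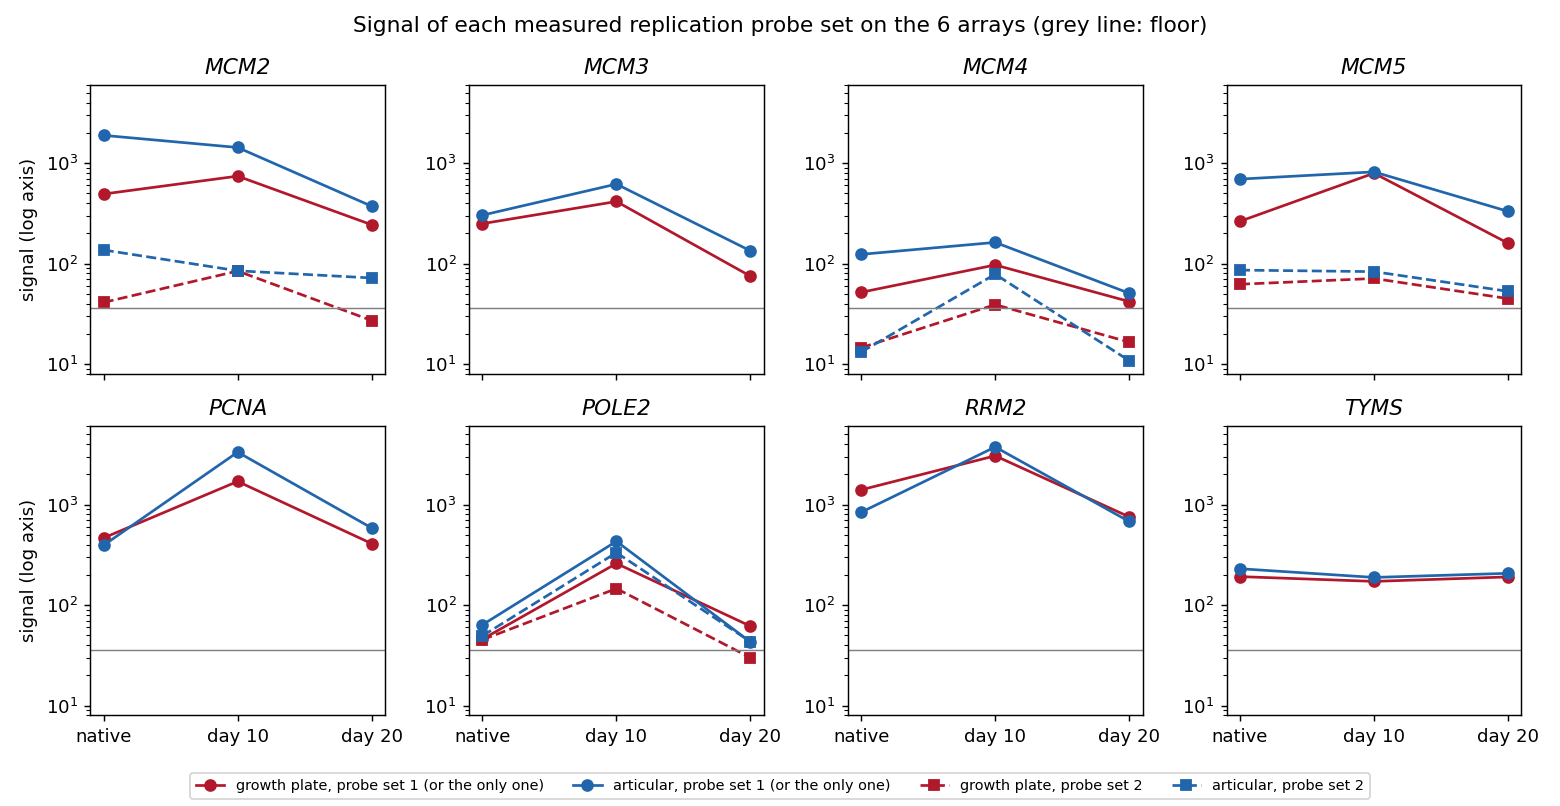
Signal (log axis) of the 12 probe sets above the floor on at least 2 arrays, for growth plate (red) and articular (blue) samples in native tissue and at day 10 and day 20 of culture. Circles with solid lines are the brighter or only probe set of a gene, squares with dashed lines the other, and the grey line is the floor of 36.1. PCNA, POLE2 and RRM2 peak at day 10 in both tissues, MCM2 is highest in native articular cartilage, and TYMS lies between 172 and 230 throughout.

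Among the helicase genes, the brighter MCM2 probe set had signals of 494, 744 and 244 in growth plate samples at the native stage, day 10 and day 20, against 1891, 1433 and 373 in articular samples. Its highest array was therefore native articular cartilage and its lowest the growth plate culture at day 20. The second MCM2 probe set had 41.3, 84.6 and 27.2 in growth plate samples against 137, 85.1 and 72.2 in articular samples, with the same highest and lowest arrays.

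MCM3 had signals of 250 (native), 416 (day 10) and 75.2 (day 20) in growth plate samples against 304, 620 and 134 in articular samples. It was highest at day 10 and lowest at day 20 in both tissues. MCM4 had 52.0, 97.2 and 42.1 in growth plate samples against 124, 163 and 50.9 in articular samples, in the same order of stages. Its second probe set had 39.2 and 78.7 in the day 10 growth plate and articular cultures and lay under the floor on the other 4 arrays. MCM5 had 264, 795 and 160 in growth plate samples against 695, 819 and 332 in articular samples. Its signals in both day 10 cultures were nearly equal, while both native and day 20 signals were lower in growth plate. The dimmer MCM5 probe set spanned a log2 range of 0.94 over the 6 arrays, where the brighter one spanned 2.35, with 62.5, 71.3 and 45.0 in growth plate samples against 86.4, 83.5 and 53.2 in articular samples.

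The clamp gene PCNA had signals of 466, 1697 and 409 in growth plate samples at the native stage, day 10 and day 20, against 394, 3319 and 585 in articular samples. The day 10 cultures stood well above the other 4 arrays. POLE2 had 45.8, 259 and 61.7 in growth plate samples against 63.7, 430 and 43.0 in articular samples. Its second probe set was also highest at day 10 in both tissues. It had 45.2, 146 and 30.0 for growth plate against 49.5, 332 and 43.3 for articular samples. For growth plate, day 20 lay above native by the brighter probe set and below native by the dimmer. Outside day 10, both POLE2 probe sets lay close to the floor.

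Of the nucleotide enzymes, RRM2 had 1401, 3051 and 754 in growth plate samples at the native stage, day 10 and day 20, against 838, 3734 and 678 in articular samples. Its native growth plate signal was 1.67-fold the native articular one, the highest such ratio of the 8 genes. TYMS had 192, 172 and 191 in growth plate samples against 230, 188 and 207 in articular samples. It spanned a log2 range of 0.42 over the 6 arrays, and day 10 was its lowest stage in both tissues.

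The comparison of day 20 with day 10 asked how these transcripts changed as the cultures went on, and each tissue gave a pair of arrays that shares none with the other. In growth plate cultures 9 of the 15 probe sets were lower by 2-fold or more at day 20, against 5.36% of all probe sets, and 0 higher by 2-fold or more, against 4.26%. In articular cultures 9 were lower by 2-fold or more, against 3.77%, and 0 higher by 2-fold or more, against 3.64%. Lower by 2-fold or more in both were 8 of the 15, against 1.87%. With a higher floor, at the 60th percentile, 5 probe sets were lower by 2-fold or more in growth plate cultures. Over the 15, the median log2 difference was -1.23 for growth plate and -1.30 for articular cultures, where the median over all probe sets was 0 in each. Since 40% of all signals were raised to the floor, a median of 0 over all was favoured in advance.

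POLE2 showed the largest difference in articular cultures, 10.02-fold lower at day 20 than at day 10 by one probe set and 7.68-fold by the other. In growth plate cultures the same probe sets were 4.20-fold and at least 4.04-fold lower. MCM3 showed the largest difference in growth plate cultures, 5.53-fold lower at day 20, and was 4.61-fold lower in articular cultures. PCNA was 4.15-fold lower in growth plate and 5.68-fold lower in articular cultures, and RRM2 was 4.05-fold and 5.51-fold lower. MCM2 and MCM4 were 3.05-fold and 2.31-fold lower at day 20 in growth plate cultures and 3.84-fold and 3.20-fold lower in articular cultures, and MCM5 was 4.96-fold and 2.47-fold lower. TYMS differed by 1.11-fold in growth plate and 1.10-fold in articular cultures, in each case higher at day 20. Among the second probe sets of the MCM genes, that of MCM2 was at least 2.34-fold lower in growth plate but 1.18-fold lower in articular cultures, and that of MCM5 was 1.59-fold and 1.57-fold lower. The second MCM4 probe set had 16.6 and 10.9 in the day 20 growth plate and articular cultures, both under the floor, against 39.2 and 78.7 at day 10, so it was at least 1.09-fold and at least 2.18-fold lower.

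**Figure D2:**
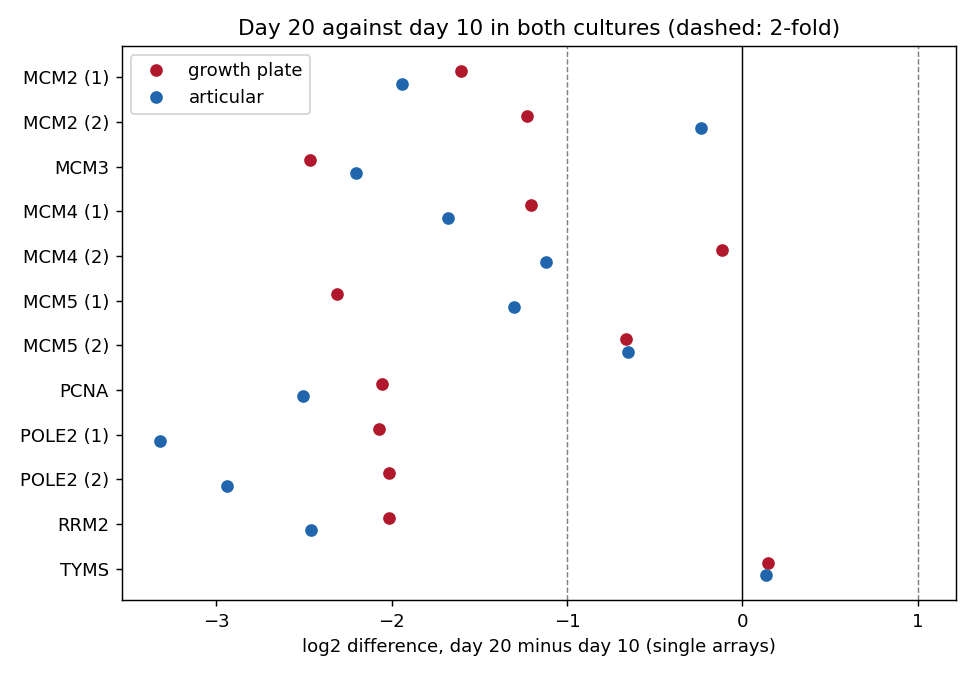
Log2 difference between single arrays, day 20 minus day 10, for the 12 probe sets above the floor on at least 2 arrays, with growth plate cultures in red and articular cultures in blue. Genes with a pair of such probe sets are numbered (1) for the brighter and (2) for the dimmer, and dashed lines mark 2-fold. TYMS alone lies above 0, and 8 probe sets lie beyond 2-fold in both cultures.

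An additive model of tissue and stage was fitted with limma to all 15636 probe sets above the floor on at least 2 arrays. Its only residual is how far the arrays depart from a sum of a tissue and a stage effect. In this fit 0 probe sets were called in either direction for day 20 minus day 10, at an adjusted p under 0.05 and a difference of at least 2-fold. On simulated data the same fit called 0% of 2-fold and 4.5% of 4-fold day changes, so the absence of calls says little about changes of that size. At an unadjusted p under 0.05 were 8 of the 12 member probe sets, against 12.7% of all tested. The smallest limma adjusted p among the members was 0.219, shared by MCM3, PCNA, RRM2 and both POLE2 probe sets, and that of TYMS was 0.916.

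The same model fitted to the 4 cultured arrays alone, which the day comparison draws on, had 1 residual degree of freedom and called 8 of the 12 member probe sets lower at day 20. Over all 14875 probe sets tested there, 7.7% were called and 4.05% were called lower. By the brightest probe set of each gene, 7 of 8 genes were called lower, against 4% of 5473 genes. In that fit RRM2 had a log2 difference of -2.24 ± 0.19 (SE) with a limma adjusted p of 0.000986. PCNA, with the same adjusted p, had -2.28 ± 0.21. MCM3 had -2.34 ± 0.30 with a limma adjusted p of 0.00266, and POLE2 had -2.70 ± 0.38 with 0.00401. MCM2, MCM5 and MCM4 had -1.77, -1.81 and -1.44, with limma adjusted p-values of 0.00311, 0.00727 and 0.0254. TYMS had 0.14 ± 0.31 with a limma adjusted p of 0.817, and the second probe sets of MCM2, MCM4 and MCM5 were not called. Also 8 were called when either native array was left out, where the 4 cultured arrays again give all of the residual, and 0 when any cultured array was left out or all 6 were kept. For each probe set, limma joined this 1 residual degree of freedom with 8.24 prior degrees of freedom, drawn from the trend over all probe sets tested. The SE and p-values therefore rest mostly on that shared spread. Since the labels name no separate animals or cultures, no spread between animals can be read from them.

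Some other measures moved with culture day. The ratio of 3′ to 5′ signal of the actin control probe sets, a sign of RNA integrity and amplification, was 5.55 and 8.75 in the day 20 growth plate and articular cultures against 3.27 and 4.58 at day 10. That of GAPDH ran the other way, at 0.995 and 1.15 at day 20 against 1.49 and 1.44 at day 10. The third such control, EF1A, moved slightly in the direction of actin, at 1.31 and 1.51 against 1.25 and 1.45. Of 8 fibroblast and synovial markers, 4 were called higher and 1 lower at day 20 in the 4-array fit, where 7.7% of all probe sets were called. Among the higher ones was COL3A1, at 406 and 473 at day 20 against 129 and 157 at day 10. Their summed signal was 61079 and 59084 at day 20 against 42977 and 50192 at day 10. The part of these in the difference of the replication genes was not tested. In bulk samples fewer cells of a type and less RNA per cell cannot be told apart.

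Day 10 was also set against native tissue, which shares the day 10 arrays with the comparison above. PCNA, POLE2 and RRM2 were higher by 2-fold or more at day 10 in both tissues, which made 3 of 8 genes against 2.66% of all genes and 4 of 15 probe sets against 2.27%. In growth plate samples 6 of the 15 were higher by 2-fold or more than native, against 5.18%, and in articular samples 6 were, against 11.1%. The growth plate count was 3 with the floor at the 60th percentile. None of the 15 was lower by 2-fold or more at day 10 in either tissue, against 5% and 6.66% of all. PCNA was 3.65-fold higher at day 10 than in native growth plate and 8.43-fold higher than in native articular cartilage. POLE2 was 5.67-fold and 6.76-fold higher by its brighter probe set and 3.23-fold and 6.72-fold by the other, and RRM2 was 2.18-fold and 4.45-fold higher. All 3 showed the greater ratio in articular samples.

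The helicase genes were mixed in this. MCM5 was 3.01-fold higher at day 10 than native in growth plate samples and 1.18-fold higher in articular samples, and MCM4 was 1.87-fold and 1.31-fold higher. MCM2 was 1.51-fold higher at day 10 in growth plate samples but 1.32-fold lower in articular samples. MCM3, like the 3 genes above, had the greater ratio in articular samples, at 1.66-fold higher in growth plate and 2.04-fold higher in articular samples. In all, 6 of the 8 genes had their highest signal of the 3 stages at day 10 in each tissue, against 17.4% of genes, the others being MCM2 and TYMS.

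By day 20 the genes lay near or below their native signal. In growth plate samples 2 of the 15 probe sets were lower by 2-fold or more than native, against 4.74%, and in articular samples 4 were, against 6.32%. None was higher by 2-fold or more in either tissue, against 3.34% and 10.5%. MCM3 was 3.33-fold lower at day 20 than native in growth plate samples and 2.26-fold lower in articular samples, and MCM2 was 2.02-fold and 5.06-fold lower. PCNA was 1.14-fold lower in growth plate and 1.48-fold higher in articular samples. For culture, as the average of day 10 and day 20, minus native tissue, limma called 0 of the 12 member probe sets over all 6 arrays, where 0.0064% of all were called. At an unadjusted p under 0.05 were 3 of the 12, PCNA and both POLE2 probe sets, against 18.4% of all. PCNA had a log2 difference of 1.33 ± 0.31 (SE) with a limma adjusted p of 0.152.

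Growth plate and articular samples were then compared at each stage. In native tissue 4 of the 15 probe sets were lower by 2-fold or more in growth plate, against 5.12% of all probe sets, and 0 were higher by 2-fold or more, against 10.2%. MCM2 was 3.83-fold lower in native growth plate by one probe set and 3.32-fold by the other. MCM5 was 2.63-fold lower by its brighter probe set and 1.38-fold by the dimmer one, and MCM4 was 2.38-fold lower. MCM3 differed by 1.21-fold, PCNA was 1.18-fold higher in growth plate, and POLE2 was 1.39-fold and 1.09-fold lower. The 4 helicase genes therefore did not share 1 native ratio, and MCM3 lay with the fork genes.

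Between the cultures the order of the genes was not that of native tissue. MCM2, MCM4 and MCM5, by their brighter probe sets, lay nearer 0 in both cultures than in native tissue, while MCM3 had a log2 difference of -0.28 in native tissue, -0.57 at day 10 and -0.84 at day 20. PCNA had 0.24, -0.97 and -0.52. At day 10, 2 of the 15 were lower by 2-fold or more in growth plate, against 2.48%, the second probe set of POLE2 at 2.28-fold and the second of MCM4 at 2.01-fold. At day 20 only the brighter MCM5 probe set was, at 2.07-fold, against 2.74%, and the second MCM2 probe set, whose growth plate signal lay under the floor, was at least 1.997-fold lower. No probe set was higher by 2-fold or more in growth plate at either day, against 3.05% at day 10 and 2.34% at day 20. At day 10 the 12 measured probe sets ranged from nearly equal, at 1.01-fold for the second MCM2 probe set, to 2.28-fold lower in growth plate. The share of all probe sets lower there by any amount was not counted. In native tissue PCNA and RRM2 were higher in growth plate. Taking the native tissue difference minus the mean of both culture differences, MCM2 had log2 values of -1.16 and -1.23, MCM5 -0.85 and MCM4 -0.74 by their brighter probe sets, while PCNA had 0.98, RRM2 0.81 and MCM3 0.43. The POLE2 probe sets had -0.37 and 0.59. For the second MCM2 and the second POLE2 probe set, the day 20 growth plate signal lay under the floor. The size of -1.23 is therefore an upper bound and that of 0.59 a lower bound. All these differences of differences are the residual of the additive model and were not tested.

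**Figure D3:**
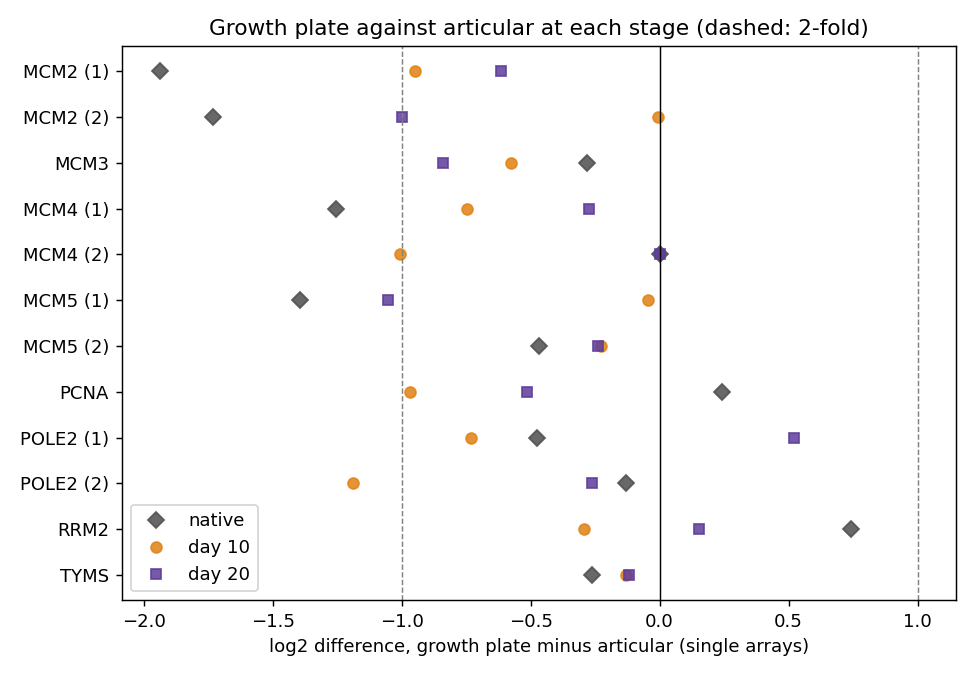
Log2 difference between single arrays, growth plate minus articular, in native tissue (diamonds), at day 10 (circles) and at day 20 (squares), for the 12 probe sets above the floor on at least 2 arrays. Genes with a pair of such probe sets are numbered (1) for the brighter and (2) for the dimmer, and dashed lines mark 2-fold. The native values of MCM2, MCM4 (1) and MCM5 (1) lie beyond 2-fold on the articular side, and no value lies beyond 2-fold on the growth plate side.

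Across all stages limma called 0 of the 12 member probe sets for growth plate minus articular, where 0% of all were called, and 1496 of 15636 had an unadjusted p under 0.05. At that level were 3 of the 12, against 9.57%, namely the brighter probe sets of MCM2, MCM4 and MCM5. MCM2 had a log2 difference of -1.17 ± 0.31 (SE) with a limma adjusted p of 0.444. In 11 of the 12 probe sets the estimate was negative, with RRM2 at 0.20 the exception. The median was -0.47 over the 12 and 0.02 over all tested, and the share of all that was negative was not counted. In the fit to the 4 cultured arrays 0 of 12 were called for tissue, against 1.96% of all called and 1.06% called lower. MCM2 then had -0.78 ± 0.24 and a limma adjusted p of 0.156.

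The native articular array stood apart from the rest, with a mean correlation across probe sets of 0.882 to the other arrays, where those had 0.926 to 0.933. Chondrocyte markers were present throughout, since all 6 on the array, among them ACAN and HAPLN1, lay above the floor on every array. Between the native tissues 1 of the 6 was higher and 1 lower by 2-fold or more in growth plate, with a median of -0.15. The lower one was SOX9, a chondrocyte transcription factor, with 175 in native growth plate against 982 in native articular cartilage. The higher one was COL11A1, with 1089 against 378. Of 10 blood and marrow markers 2 to 5 lay above the floor on an array, with summed signals of 458 in native growth plate against 719 in native articular cartilage and 545 to 816 in cultures. PTPRC, ALAS2 and AHSP, which define blood lineages, lay under it on all 6. HBB, a haemoglobin chain, had 234 in native growth plate against 398 in native articular cartilage and 289 to 610 in cultures, and HBM, KLF1 and KIT had 45.9, 43.2 and 56.2 in native articular cartilage, where native growth plate had 13.6, 18.6 and 17.6, all under the floor. Of 8 endothelial markers 2 or 3 were above the floor, with sums of 294 in native growth plate against 522 in native articular cartilage, PECAM1 having 67.2 against 277, while VWF, CDH5, KDR, TEK and TIE1 lay under it everywhere. Of 6 osteoblast markers 2 to 4 were above, with sums of 15428 against 17607 in native tissue, nearly all from SPARC. COL1A2, the only one of these 2-fold or more apart, had 432 in native growth plate against 146 in native articular cartilage. Of 6 osteoclast and macrophage markers 1 to 3 were above, with sums of 14922 against 17904, nearly all from CTSK. All 8 fibroblast and synovial markers were above, with sums of 53271 against 44328. Of these, 3 were higher by 2-fold or more in native growth plate and 0 lower by 2-fold or more. S100A4 had 4953 against 381, COL3A1 262 against 58.0 and THY1 6583 against 1818. Of 6 muscle and fat markers 1 to 3 were above, with sums of 1429 against 521, mostly from LPL. Their part in the native difference of the MCM genes was not tested.

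The other genes of the pathway were read by their brightest probe set. Their lists drew on general knowledge but were chosen with earlier results of these data known. The shares of all genes given beside them are therefore no independent check. Of 11 genes of origin licensing and of the helicase complex on the array, 5 were called lower and 0 higher at day 20 in the 4-array fit, against 4% of all genes called lower. Lower by 2-fold or more in both cultures were 4 of the 11, against 2.38% of all genes. The median log2 difference was -0.80 for growth plate and -1.28 for articular cultures. ORC1, a subunit of the origin recognition complex, had signals of 90.2 and 121 in the day 20 growth plate and articular cultures against 342 and 519 at day 10, a log2 difference of -2.01 with a limma adjusted p of 0.00506. GINS4, a subunit of the active helicase, had 49.8 and 72.4 at day 20 against 230 and 256 at day 10. MCMBP, a binding partner of MCM proteins, went the other way, with 1018 and 1094 at day 20 against 638 and 804 at day 10, and was not called. GMNN, the inhibitor of licensing, had 277 and 522 at day 20 against 793 and 899 at day 10. In native tissue the median of these genes was -0.32, with 2 of 11 higher by 2-fold or more in growth plate (ORC3 and DBF4) and 1 lower by 2-fold or more. That gene, GMNN, was 2.08-fold lower in native growth plate, at 570 against 1185.

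Of 20 genes of polymerases and the replication fork, 5 were called lower and 1 higher at day 20 in the 4-array fit, where 4% of all genes were called lower. FEN1, the nuclease that trims Okazaki fragments, had 127 and 161 at day 20 against 298 and 543 at day 10. POLA2, a subunit of the priming polymerase, had 110 and 106 at day 20 against 278 and 390 at day 10. ASF1B, a histone chaperone of the fork, was 5.87-fold lower at day 20 in that fit, with a limma adjusted p of 0.00284 and 1 day 20 array under the floor. LIG1, the ligase that joins Okazaki fragments, was 2.91-fold lower in the native growth plate, at 91.4 against 266, and POLD2 and POLE4, polymerase subunits, were 2.58-fold and 2.40-fold lower. POLA2 and ASF1B went the other way, higher there by 2.33-fold and at least 2.02-fold. The list's median there was -0.05.

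Of 20 nucleotide supply genes on the array, 2 were called lower and 0 higher at day 20 in the 4-array fit, with medians of -0.28 for growth plate and -0.34 for articular cultures. Over all genes 4% were called lower. The 2 were RRM1, the large subunit of ribonucleotide reductase, named here after its values were seen, and CTPS1, which makes CTP. RRM1 had 1636 and 1858 at day 20 against 3402 and 5640 at day 10, so that both subunits of the reductase were lower. In native tissue the list's median was -0.52. GLRX, glutaredoxin, which can reduce ribonucleotide reductase, showed the list's largest native difference and was 4.56-fold higher in growth plate, at 507 against 111. NME1, a nucleoside diphosphate kinase, was 2.70-fold lower in native growth plate, at 1704 against 4598, and MTHFD1, a folate enzyme of purine and thymidylate synthesis, was 2.14-fold lower, at 504 against 1079.

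Mitotic genes shared the day difference but not the native one. Of 22 on the array, 21 were tested in the 4-array fit, with 17 called lower and 0 higher at day 20. Among all genes 4% were called lower there. Lower by 2-fold or more in both tissues were 15 of the 22, against 2.38% of all genes. In native tissue 16 of the 22 were higher by 2-fold or more and 1 lower by 2-fold or more in growth plate, with a median of 1.77, where the 8 replication genes had -0.38 with 0 higher and 3 lower. Over all genes 10.8% were higher by 2-fold or more and 6.73% lower. NEK2, a centrosome kinase, had 1170 in native growth plate against 50.6 in native articular cartilage, and PLK1, a mitotic kinase, had 315 against a signal of 20.9, under the floor. The 1 mitotic gene on the other side was CKS2, a partner of cyclin-dependent kinases, named here after its values were seen, with 2467 in native growth plate against 5817 in native articular cartilage. Native articular cartilage was the lowest of the 6 arrays for 14 of the 22 mitotic genes and for 1 of the 8 replication genes, PCNA. It was the highest for MCM2 and TYMS, and also for CKS2 of the mitotic list. This difference between the lists was not tested.

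**Figure D4:**
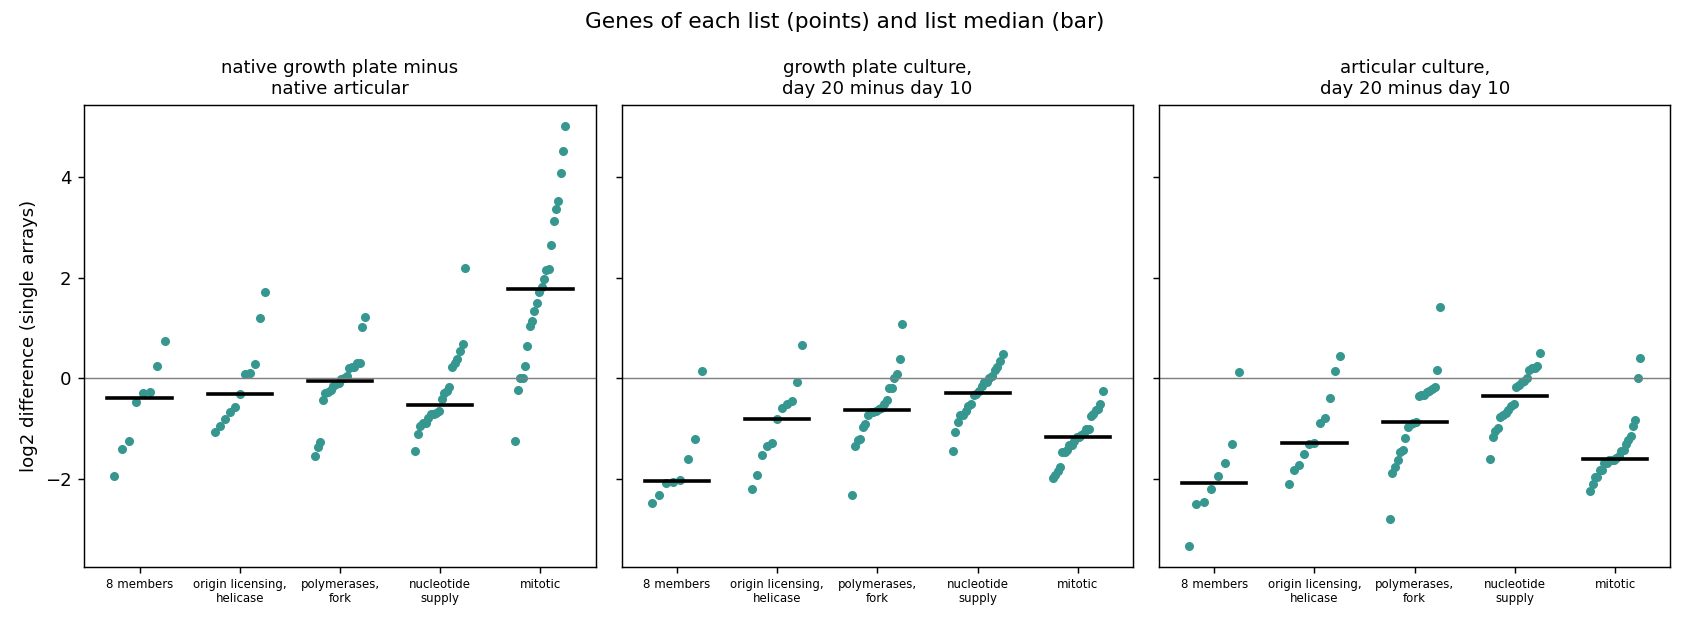
Log2 differences between single arrays for the genes of each list, by the brightest probe set of a gene, as points with the list's median as a bar. The panels show native growth plate minus native articular cartilage and day 20 minus day 10 in each culture. In native tissue the mitotic median is 1.77 and that of the 8 replication genes -0.38, while between culture days both lists lie mostly below 0.

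Regulators of the step from G1 into S phase were mixed. Of 10 on the array, 9 were tested in the 4-array fit, with 1 called lower and 1 higher at day 20. Among all genes 4% were called lower. MYBL2, a transcription factor of dividing cells, had 421 and 499 at day 20 in growth plate and articular cultures against 1082 and 1580 at day 10. CDKN1A, the cyclin-dependent kinase inhibitor p21, had 5850 and 6984 at day 20 against 3107 and 2618 at day 10, a log2 difference of 1.16 with a limma adjusted p of 0.00449 in that fit and of 0.222 over all 6 arrays. In native tissue MYC and CCND2, cyclin D2, were 3.62-fold and 3.02-fold lower in growth plate, at 747 against 2705 and at 1005 against 3031. CCNA2, cyclin A2, went the other way by at least 2.05-fold, at 74.2 against a signal of 16.4, under the floor. Of 5 genes of histone and chromatin supply on the array, 4 were tested in that fit and 0 were called at day 20. HMGB2, a chromatin protein of dividing cells, had 2915 and 3516 at day 20 against 4798 and 6041 at day 10.

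Across the 6 arrays the log2 profiles of PCNA, POLE2 and RRM2 had pairwise Pearson's r between 0.910 and 0.950, and those of the 4 MCM genes between 0.832 and 0.942. Against PCNA, POLE2 and RRM2, MCM2 had r of 0.414 to 0.507, MCM4 and MCM5 had 0.658 to 0.756, and MCM3 had 0.745 to 0.837, which reaches the lowest value among the MCM genes. TYMS had r between -0.672 and 0.323 with the other genes. These describe 6 arrays of which each holds a single condition, and the points share the scaling of each array. Among 3175 other genes with a range of at least 2-fold, the profile most like the mean of the 8 was that of CDC45, a partner of the MCM helicase, with r of 0.991. CDC45 had 276, 442 and 174 in growth plate samples at the native stage, day 10 and day 20, against 408, 675 and 206 in articular samples. Next came EIPR1, LOC100515166, DCTPP1, which breaks down unwanted dCTP analogues, CHAF1A, a subunit of the histone chaperone that follows PCNA, and GAR1, with r of 0.984 to 0.980. For PCNA alone the closest gene was FEN1, with r of 0.996, and for MCM2 it was CKS2, with r of 0.996. MCM3 lay closest to RAD51AP1, a recombination factor, with r of 0.992, and RRM2 to GSG2, the histone kinase haspin, with r of 0.996. TYMS lay closest to NACA, a chaperone of new proteins, with r of 0.996.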

How the data were processed

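Each array was deposited as 1 linear intensity per probe set, from GCOS 1.4 according to the submitters' processing notes. The settings are not given in the sources used here. The mean signal without the top and bottom 2% of probe sets agreed between arrays within a ratio of 1.00005, and the values were used as they stand. With 6 arrays, their number limits the precision. Of 24123 probe sets, 124 controls were left out. Probe sets were named from the platform annotation, which gave 10069 a single symbol, 198 several and 13732 none, and list genes were updated through RefSeq gene IDs, which matched 9961. Every probe set was a feature, so that each one of a gene is shown.

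Signals were floored, log2 was taken, and limma 3.58.1 in R 4.3.3 fitted tissue and stage with an intensity trend. The fit to 6 arrays had 2 residual and 3.84 prior degrees of freedom. Differences between single arrays have no test. Calls needed a Benjamini-Hochberg adjusted p under 0.05 and 2-fold. Both the fit to 6 arrays and the fit to the 4 cultured arrays were tried on simulated data with 200 changed probe sets. For day, the fit to 6 arrays called 0%, 4.5% and 90% of those changed 2-fold, 4-fold and 16-fold. The fit to 4 arrays called 10.5%, 90.5% and 100%, along with 1, 13 and 28 unchanged probe sets. Named genes are the 8, from each list up to 6 by native difference and 4 by culture change, and the closest profiles. The members and lists were chosen with earlier results of these data known. Alternatives were other scalings, floors, filters, features, models and arrays left out. No sequences were used here.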

Additional observations from a re-analysis of the deposited data

Results flagged for a closer look

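Some probe sets went opposite ways in growth plate and articular samples under the same comparison of single arrays, with at least 0.25 on the log2 scale on each side. These differences were not tested. At day 10 against native tissue, MCM2 had log2 differences of 0.59 and 1.04 by its brighter and dimmer probe sets in growth plate samples and of -0.40 and -0.69 in articular samples. At day 20 against native tissue, the brighter POLE2 probe set had 0.43 in growth plate and -0.57 in articular samples, while the dimmer one was lower than native in both, with its day 20 growth plate signal under the floor.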

How the results depend on the processing

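No paired analysis was possible because each condition has 1 array and the labels give no replicate numbers to use as a block. The tissue term of the model already sets day 20 against day 10 within each tissue, in the 4-array fit too. No alternative called a member probe set for tissue. For day 20 minus day 10, limma called 8 member probe sets in the fit to the 4 cultured arrays and 0 to 8 when leaving out 1 array in turn, the 8 being reached without either native array. For culture minus native it called 0 to 2 when leaving out 1 array, the 2 without the native growth plate array. Leaving out 1 array, the features called over all ranged from 7 to 248 for tissue, 0 to 1097 for day and 4 to 2994 for culture, against 0, 0 and 1 with all arrays. The 4 cultured arrays gave 291 for tissue and 1145 for day. For tissue and culture, median centring gave 6 and 3, a floor at the 25th percentile 6 and 2, a pseudocount of 32 in place of the floor 12 and 11, 1 probe set per gene 3 and 0, and averaging each gene's probe sets 1 and 0. Quantile normalization gave 5 for tissue, and a floor at the 60th percentile or no filter gave 0 for culture.

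The median day 20 minus day 10 difference of the members in growth plate and articular cultures was -1.61 and -1.68 with the floor at the 25th percentile, 0 and -0.26 at the 60th, under which most dim members lie, -2.02 and -1.94 over the 9 above the floor on all 6 arrays, and -2.03 and -2.07 with 1 probe set per gene. Averaging each gene's probe sets gave -1.80 for articular cultures. For articular day 10 against native it was 0.71 with 1 probe set per gene and 0.89 with their mean, for growth plate day 10 against native 0 with the floor at the 60th percentile, and for articular day 20 against native -0.82 with 1 probe set per gene and -0.70 above the floor on all arrays. The number of the 15 lower by 2-fold or more at day 20 than at day 10 ranged over the other scalings, floors and filters from 5 to 10 in growth plate and from 7 to 9 in articular cultures. In native tissue the number lower in growth plate ranged from 2 to 5, at day 10 from 0 to 4 and at day 20 from 0 to 3. For day 10 against native the number higher ranged from 3 to 7 in growth plate and from 4 to 6 in articular samples, and for day 20 against native the number lower ranged from 1 to 2 and from 2 to 5. Small differences changed sign. The brighter MCM5 probe set, at 0.01 for culture, had -0.031 with quantile normalization, -0.0792 with median centring and -0.41 to 0.43 when leaving out 1 array. MCM2 (dimmer) and MCM4 (brighter) ranged from -0.81 to 0.42 and from -0.44 to 0.30 there. For tissue RRM2 had -0.0692 in the 4 cultured arrays and -0.0692 to 0.45 when leaving out 1 array, and POLE2 (brighter) -0.60 to 0.0226. The cause was not tested.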
